A study of Mus musculus with 16 samples.

Results

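The mt-Co2 mRNA encodes subunit II of cytochrome c oxidase, and the RNase footprints called along it are described here in heart mitochondria with and without LRPPRC. A footprint was counted for mt-Co2 when it lay on the plus strand of the mitochondrial genome and mt-Co2 was the gene of that strand with which it shared most bases. This rule found 13 of the 302 deposited footprints, 9 of 178 called on the control track and 4 of 124 called on the knockout track. Control mice were Lrpprc loxP/loxP on a C57BL/6N background, and knockout mice were Lrpprc loxP/loxP,Cre+, in which Cre removes the gene in heart and skeletal muscle. Both genotypes were 12 weeks old and carried the loxP alleles, and the knockout is a tissue-restricted model, since loss of LRPPRC throughout the body is lethal. From each genotype, 1 library was made of a heart mitochondrial lysate digested with 10 U/µl RNase A, 1 with 0.1 U/µl of RNase T1, 1 with RNase If (0.01 U/µl), and 1 without RNase (mock). These 4 libraries were combined into 1 track per genotype, so no value has an error between mice, no test was possible, and intervals cover counting error only. The deposited lists hold no read counts, and the depth of the libraries is unknown.

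LRPPRC is a pentatricopeptide repeat protein that forms a complex with SLIRP in the mitochondrial matrix, binds mitochondrial mRNAs, and is known to be needed for their stability, polyadenylation and coordinated translation. Cytochrome c oxidase activity is low in the form of Leigh syndrome found in people who carry LRPPRC mutations. Subunit II carries the CuA centre that accepts electrons from cytochrome c, and its mRNA, like other mitochondrial mRNAs, begins and ends next to tRNA genes from which it is cut. Footprinting rests on the fact that a base shielded by a protein is cut less often than its surroundings. The enzymes complement each other, because G is the target of RNase T1 and the pyrimidines that of RNase A, while RNase If has no base preference. Base pairing hinders RNase T1 and RNase If, whereas RNase A can also act on paired RNA.

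The gene (ENSMUSG00000064354.1) spans chrM:7013-7696 on the plus strand of mm10. Read from the reference, it holds 228 codons from AUG to UAA, so that every footprint here lies in coding sequence. Upstream, mt-Td (tRNA-Asp) ends 1 nt before it, and downstream mt-Tk (tRNA-Lys) begins 3 nt after it. The sequences that the results turn on are the control-called site with the lowest scores and the control-called neighbours that lie closest together. Added to these are the only overlap between the tracks and the knockout-called sites with the highest F score and the highest GC content. They are given in transcript order, as RNA from 5′ to 3′ and read from the RefSeq mm10 mitochondrial genome. The footprint is in capitals, and the 3 nt on each side that served as its flanks are in lower case.
Control-called chrM:7182-7199: uagAUGCACAAGAAGUUGAAAcca
Control-called chrM:7202-7213: accAUUUGAACUAUUcua
Knockout-called chrM:7312-7319: cauAGGGCACCaau
Knockout-called chrM:7350-7384: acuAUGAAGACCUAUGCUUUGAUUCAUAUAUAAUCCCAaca
Control-called chrM:7382-7391: aucCCAACAAACGacc
Control-called chrM:7423-7431: agaAGUUGAUAAccg
Knockout-called chrM:7447-7461: gccAAUAGAACUUCCAAUccg
Control-called chrM:7600-7613: augCUCUGAAAUUUGUGgau
Control-called chrM:7615-7634: uggAUCUAACCAUAGCUUUAUGCcca

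Called footprints covered 222 nt of the mt-Co2 mRNA, or 32.5%, and left 462 nt uncovered. Control-called footprints covered 142 nt (20.8%) and knockout-called footprints 83 nt (12.1%), with 3 nt in both. When the mRNA was divided into 3 equal parts of 228 nt, and each footprint placed by its midpoint, the control track had 2, 3 and 4 footprints from 5′ to 3′, which covered 30, 31 and 81 nt. On the knockout track the same parts held 1, 3 and 0 footprints, which covered 25, 58 and 0 nt. The 3′ part of the coding sequence therefore held 4 control-called footprints and no knockout-called one, and its first 169 nt held 1 knockout-called footprint and no control-called one. With 13 footprints and no replicates, this difference in position was not tested.

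Each footprint comes with 2 scores on the track that it was called on. The C score is the log10 ratio of the highest RNase-treated 5′-end coverage to the mock coverage, each with 1 added, averaged over the footprint. A C score of 0 arises where both coverages are equal, and also where both are close to none, which the lists do not tell apart. Below 0, mock coverage exceeded the highest RNase-treated coverage. The lists do not tell few RNase-treated ends from many mock ends there. The antilog of the C score is called accessibility here, and because of the added 1 it lies closer to 1 than the ratio of the coverages themselves. The F score adds the accessibility of the centre relative to the left flank and relative to the right flank. An F score of 2 thus means a centre as accessible as its flanks, and lower values mean stronger protection relative to the flanks. The calling used both genotypes, since it required a central C score that was higher in the experiment than in the control and a change in F score past the threshold. The scores of the calling track are therefore not independent of the calling. In the paper, control-called footprints are those with a higher F score in the knockout than in the control, and knockout-called ones those with a lower. Each list thus holds sites that changed in its direction, not all footprints of a genotype.

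**Figure D1:**
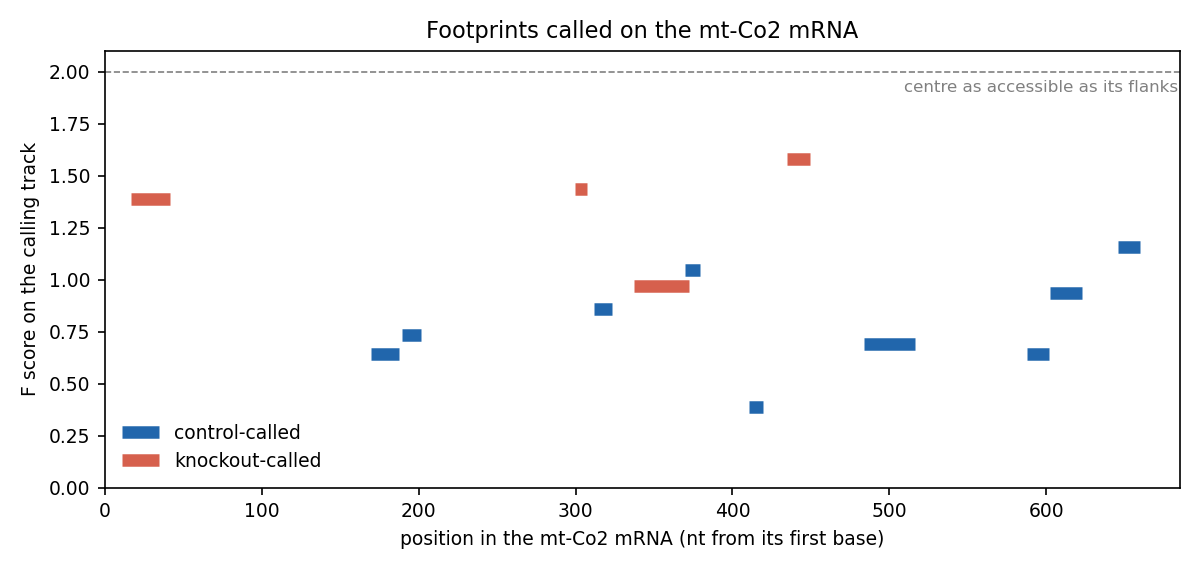
Positions of the 13 mt-Co2 footprints (horizontal axis, nt from the first base of the mRNA; bar width is footprint length) and their F score on the track they were called on (vertical axis). Control-called footprints lie between 0.389 and 1.16 and knockout-called footprints between 0.969 and 1.58; the dashed line at 2 marks a centre as accessible as its flanks.

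The first footprint on the mRNA was knockout-called, at nt 17 to 41 (chrM:7029-7053, codons 6 to 14), with a length of 25 nt. Its central C score was -2e-06, and its F score was 1.39. After a stretch of 128 nt without any footprint, 2 control-called footprints followed with 2 nt between them. The first of these, at nt 170 to 187 (chrM:7182-7199, codons 57 to 63), had a C score of 0.0994 and an F score of 0.643. The second, at nt 190 to 201 (chrM:7202-7213, codons 64 to 67), had a C score of 0.178 and an F score of 0.734. In both the accessibility of the centre was above 1, at 1.26 and 1.51, while that of the flanks was 3.91 and 4.11 (harmonic mean of both sides). The C score of the second was the 3rd highest of the 178 control-called footprints.

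The middle of the mRNA held both kinds of footprint side by side. A knockout-called footprint of 8 nt at nt 300 to 307 (chrM:7312-7319) had a C score of 0.0499 and an F score of 1.43. It was followed 4 nt later by a control-called footprint of 12 nt at nt 312 to 323 (chrM:7324-7335), with a C score of -0.235 and an F score of 0.859. The accessibility of the centre was 1.12 at the knockout-called site and 0.582 at the control-called site. The 2 scores come from different tracks and different bases, so they are given side by side without a comparison.

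The next knockout-called footprint was the longest of the 13, with 35 nt at nt 338 to 372 (chrM:7350-7384). It had a C score of 0.0217 and an F score of 0.969, the lowest of the 4 knockout-called footprints and the 18th lowest of 124. Its last 3 nt were also the first 3 nt of a control-called footprint of 10 nt at nt 370 to 379 (chrM:7382-7391). That footprint, which contains no U, had a C score of -0.0909 and an F score of 1.04. The shared bases were 30% of the control-called and 8.57% of the knockout-called footprint. This was the only overlap among the 36 pairs of a control-called and a knockout-called footprint on mt-Co2. It involved 1 of 9 control-called footprints, against 31.5% of the whole control-called list (56 of 178) that shared at least 1 nt of the same strand with a knockout-called one. Of the knockout-called footprints it involved 1 of 4, against 42.7% of that list (53 of 124). These shares were not tested against each other. The lists take F score changes of opposite direction, so the same span cannot be in both.

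The site with the lowest scores of the whole control-called list lay on mt-Co2, at nt 411 to 419 (chrM:7423-7431, codons 137 to 140). Over its 9 nt the C score was -0.758 and the F score 0.389, each the lowest of the 178 control-called footprints. The accessibility was 0.174 in the centre and 0.896 in the flanks, 5.14-fold that of the centre. Both values are below 1, where mock coverage exceeded the highest RNase-treated coverage. Whether the low scores come from few RNase-treated ends or from many mock ends was not tested. The next lowest C score on mt-Co2 was the -0.235 given above. A knockout-called footprint of 15 nt began 15 nt further downstream, at nt 435 to 449 (chrM:7447-7461, codons 145 to 150). Its C score of 0.0810 and its F score of 1.58 were the highest of the 4 knockout-called footprints, and the F score was the 17th highest of 124. On mt-Co2, the control-called site with the lowest F score and the knockout-called site with the highest thus lay next to each other.

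Downstream of this point all 4 footprints were control-called. The longest, with 33 nt at nt 484 to 516 (chrM:7496-7528), had a C score of -0.0401 and an F score of 0.691. After 71 nt without a footprint, sites at nt 588 to 601 (chrM:7600-7613) and nt 603 to 622 (chrM:7615-7634) were separated by a single nt. The first of these, of 14 nt, had a C score of -0.135 and an F score of 0.643, and the second, of 20 nt, had a C score of -0.0373 and an F score of 0.938. The last footprint, of 14 nt at nt 646 to 659 (chrM:7658-7671), had a C score of -0.145 and an F score of 1.16, the 12th highest of the 178, and ended 25 nt before the end of the mRNA. The accessibility of these 4 centres was 0.717 to 0.918.

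By list, control-called footprints on mt-Co2 were 9 to 33 nt long (median 14 nt), had C scores between -0.758 and 0.178 (median -0.0909) and F scores between 0.389 and 1.16 (median 0.734). Knockout-called footprints were 8 to 35 nt long (median 20 nt), had C scores between -2e-06 and 0.0810 (median 0.0358) and F scores between 0.969 and 1.58 (median 1.41). In the complete lists, median F scores were 0.826 for control-called and 1.27 for knockout-called footprints, and median C scores were -0.0272 and 0.0261. A C score below 0 was found for 7 of 9 control-called footprints on mt-Co2, against 61.8% of the control-called list, and for 1 of 4 knockout-called ones, against 23.4% of that list. That knockout-called footprint was chrM:7029-7053, whose C score of -2e-06 can hardly be told from 0. An F score of at most 1 was found for 7 of 9, against 82.6%, and for 1 of 4, against 16.1%. With 9 and 4 footprints these counts do not set mt-Co2 apart from the lists, and the scores were among the values used to call the footprints.

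**Figure D2:**
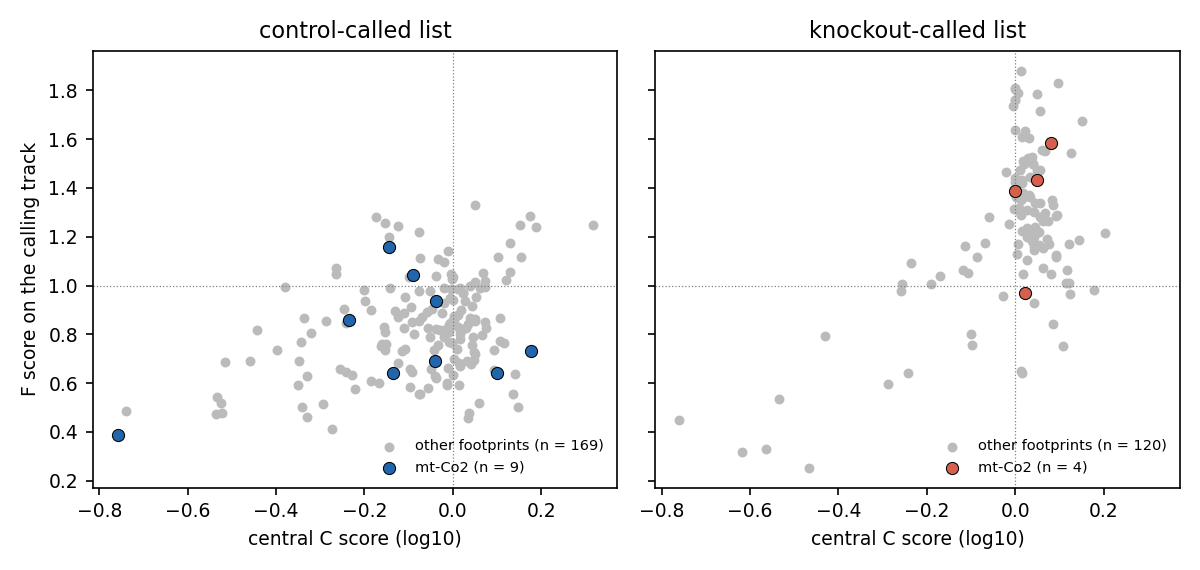
Central C score (horizontal axis, log10) and F score (vertical axis) of every footprint in the control-called (left) and knockout-called (right) lists, with mt-Co2 in colour. Dotted lines mark a C score of 0 and an F score of 1; the mt-Co2 point at a C score of -0.758 and an F score of 0.389 is the lowest of the control-called list on both axes.

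Relative to its length, mt-Co2 had 13.2 control-called footprints per kb (95% exact Poisson interval 6.02 to 25.0) and 5.85 knockout-called footprints per kb (1.59 to 15.0). The other 12 mRNAs together had 9.19 (7.46 to 11.2) and 5.72 (4.37 to 7.35). Both intervals for mt-Co2 contained the value for the other mRNAs, so that a difference was not detectable with this number of footprints. Among the 13 mRNAs it ranked 4th for control-called and 5th for knockout-called footprints per kb. By covered share it ranked 3rd and 6th.

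The other mitochondrially encoded subunits of cytochrome c oxidase, mt-Co1 and mt-Co3, had intervals that overlapped those of mt-Co2. Control-called footprints numbered 17.5 per kb on mt-Co1 (11.5 to 25.4) and 11 footprints on mt-Co3, which gives an interval of 7.00 to 25.1 per kb, and knockout-called footprints numbered 7.77 (4.01 to 13.6) and 6.38 (2.07 to 14.9) per kb. The 3 transcripts had 2.25 (mt-Co2), 2.25 (mt-Co1) and 2.2 (mt-Co3) control-called footprints for each knockout-called one. The ratio was 1.61 for all mRNAs other than mt-Co2, among them mt-Co1 and mt-Co3, and 1.44 for the complete lists. On mt-Atp6 and mt-Atp8, the next mRNAs downstream, this ratio was 3, from 8 and 4 footprints. On the remaining mRNAs with knockout-called footprints it ran from 0.875 (mt-Nd1) to 2 (mt-Cytb). For mt-Co2 the control-called share was 69.2% of 13 footprints (95% Wilson interval 42.4 to 87.3%), which includes the 61.6% of the other mRNAs.

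In base composition, control-called footprints on mt-Co2 held 35.9% A, 20.4% C, 14.8% G and 28.9% U, and knockout-called footprints 34.9% A, 25.3% C, 14.5% G and 25.3% U. The parts of the mRNA outside all footprints held 32.9% A, 27.1% C, 12.6% G and 27.5% U. The GC content was 35.2% in control-called (Wilson interval over 142 nt, 27.8 to 43.4%), 39.8% in knockout-called (over 83 nt, 29.9 to 50.5%) and 39.6% in uncovered sequence. These intervals overlap. Individual sites differed more, from 16.7% GC at the control-called chrM:7202-7213 to 75% at the knockout-called chrM:7312-7319. The control-called footprint with the lowest scores, chrM:7423-7431, contains no C.

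The bases next to the footprints bear on which enzyme can cut there. Of the 51 flanking nt of control-called footprints 29.4% were C and 15.7% U, and of the 24 flanking nt of knockout-called footprints 50% were C and 16.7% U. The whole mt-Co2 mRNA held 25.3% C and 27.6% U. Shares over the flanks of the whole lists are not given, so these flanks are not set apart from others. All 4 knockout-called footprints began with A, against 36.3% of the knockout-called list, as did 5 of the 9 control-called footprints, against 34.3% of that list. The base directly 5′ of a control-called footprint on mt-Co2 was G in 4, C in 3, A in 2 and U in 0 of 9 cases. Over the whole control-called list that base was G in 12.9%, C in 26.4%, A in 35.4% and U in 25.3% of footprints. Directly 3′ it was C in 5, G in 2, A in 2 and U in 0 cases, against 24.2%, 23.0%, 29.2% and 23.6% of the list. Directly 5′ of the knockout-called footprints stood U in 2 and C in 2 of 4 cases, against 35.5% and 25.8% of that list, and directly 3′ stood A in 2 and C in 2, against 28.2% and 31.5%. With 9 and 4 footprints these counts were not tested. The role of RNase specificity in these positions was not tested.

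Pairing predicted for the naked mRNA by RNAfold at 37 °C does not use the footprinting data. On average a base of a control-called footprint was unpaired with a probability of 0.479, a base of a knockout-called footprint with 0.551, and a base outside all footprints with 0.559. In local folds, with pairs of at most 100 nt span, these values were 0.538, 0.629 and 0.640, in the same order. The spread between footprints was wider than these differences. Mean unpaired probability was 0.0534, the lowest of the 13, at chrM:7423-7431, the control-called site with the lowest scores. It was highest, at 0.95, at the control-called chrM:7382-7391, where the predicted minimum free energy structure has no paired base. Over the knockout-called footprints it was 0.275 at chrM:7312-7319, 0.522 at chrM:7447-7461, 0.576 at chrM:7350-7384 and 0.622 at chrM:7029-7053.

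The control-called neighbours that lie closest together were predicted to pair with each other. Between chrM:7600-7613 and chrM:7615-7634 the expected number of base pairs was 7.57 in the fold of the whole mRNA and 6.79 in local folds. Between chrM:7182-7199 and chrM:7202-7213 it was 4.75 and 5.88. The minimum free energy structure held 9 and 7 of these pairs, so that in each case the footprints formed opposite arms of a predicted hairpin, with 1 or 2 nt of uncovered sequence between them. The knockout-called chrM:7312-7319 and the control-called chrM:7324-7335 lie 4 nt apart. Their expected number of pairs was 0.000911 in the whole fold and 0.136 in local folds, with 0 in the minimum free energy structure. For some other pairs of footprints the number depended on the fold. Between the control-called chrM:7324-7335 and the knockout-called chrM:7350-7384 the expected number of pairs was 0.108 in the fold of the whole mRNA and 4.49 in local folds. The knockout-called chrM:7350-7384 and chrM:7447-7461 shared 8 pairs in the minimum free energy structure, but 0.515 expected pairs in the whole fold and 0 in local folds. In the fold of the whole mRNA, of the 8.52 bases at chrM:7423-7431 expected to be paired, 8.49 had a partner outside all footprints, most often near position 7472 of the mitochondrial genome. The minimum free energy structure pairs 5 of the 9 bases of this site (55.6%), a smaller share than at 6 other footprints. Within itself, the knockout-called chrM:7350-7384 had 3.59 expected pairs in the whole fold, 1.74 in local folds and 0 in the minimum free energy structure. For the knockout-called chrM:7029-7053 these numbers were 2.54, 3.69 and 1, and for the control-called chrM:7496-7528 they were 1.39, 3.98 and 5.

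A run of 9 bases, AGAAGUUGA, was the longest shared by any pair of separate mt-Co2 footprints with their flanks. It lies inside the control-called chrM:7182-7199 and at the start of chrM:7423-7431, where the first 3 bases are the flank. This run occurred at these 2 places in mt-Co2 and nowhere else in the 12 plus-strand mRNAs. The sites that share it differed in C score, 0.0994 against -0.758, and in mean unpaired probability, 0.392 against 0.0534.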

How the data were processed

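Libraries were prepared from heart mitochondrial RNA fragments and sequenced in pairs, 4 for each Lrpprc genotype. Technical replicates had been pooled by the authors, who removed adapters (cutadapt 1.10), mapped the reads to mm10 (Bowtie2) and scaled strand-specific 5′ coverage to library size. The number of mice behind a track is not given in the sources used here. Deposited are BED lists of footprints of 8 to 40 nt called by the authors at an FDR of 5% against shuffled scores, with 2 scores on the calling track, C (central) and F. A further deposited column, the authors' log2 fold change of the F score between genotypes, was not used. The lists carry positions as BED intervals, converted to 1-based here.

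Genes were taken from the GENCODE and sequences from the RefSeq mm10 annotation, and a footprint was assigned to the same-strand gene that shared most bases with it, at minimum 1 nt. F/2 gives the accessibility of the centre over the harmonic mean of its flanks, and 10 to the power of C that of the centre over mock, where 1 was added to both coverages by the authors. Intervals are Wilson for shares and exact Poisson for counts, at 95%. The assignment, overlap, merging and coverage of spans were checked on made-up spans with known answers. Pairing was predicted with ViennaRNA 2.7.2 (RNAfold, and RNAplfold with a window of 150 nt and a span of 100 nt). Calculations were made in Python 3.11.15 with SciPy 1.17.1 and NumPy 2.4.6, and plots with Matplotlib 3.10.9.

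All 13 mt-Co2 footprints, mt-Co1, mt-Co3, the neighbouring tRNA genes, the nearest footprints outside mt-Co2 and those on its opposite strand were named by rule. The members and lists were chosen with earlier results of these data known, and the shared run of bases and the pairing between neighbours were picked once their values had been seen. As alternatives, the lists were recomputed with an F score of at most 1, a length of at least 10 nt, merging within 3 nt, whole containment, no strand, footprints with flanks, a larger overlap, means for medians, means over footprints and local folding. Slirp libraries were not analysed here.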

Additional observations from a re-analysis of the deposited data

How the results depend on the processing

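A count was called close within 1.5 times the reported one, a share within its Wilson interval, and a score or probability within 1 SD over footprints, a wide limit for so few of them. By these limits, 30 of 37 alternative values stayed close, 7 moved and 0 were reversed. Merging within 3 nt joined the 9 control-called footprints into 7 spans, and an F score of at most 1 left 7 of the 9. Without footprints under 10 nt the median C score fell from 0.0358 to 0.0217 for knockout-called ones. Keeping only footprints with an F score of at most 1 left 1 knockout-called footprint on mt-Co2, and covered shares of 17.3% for control-called and 5.12% for knockout-called footprints. Counting the 3 nt flanks raised the covered shares to 27.3% and 15.6%, and the overlapping pairs from 1 to 2. Requiring that at least as many bases of the shorter footprint were shared as unshared left 0 overlapping pairs. The comparison of pairing between neighbours with local folds was added after seeing the data. With 1 track per genotype, no replicate could be left out and genotype cannot be told apart from any difference between the preparations. The lists hold sites whose F score changed between the genotypes past the threshold, so the absence of a footprint does not show that a site was unprotected. Depth is unknown, and the pairing is of the reference mRNA without proteins or poly(A) tail.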

Other observations

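Close to mt-Co2, the knockout track held a footprint at each of the tRNA genes that flank it. The upstream one, chrM:6978-7010 in mt-Td, was 33 nt long, ended 2 nt before mt-Co2 and had a C score of 0.0150 and an F score of 0.641. Downstream, chrM:7702-7710 in mt-Tk was 9 nt long, began after a gap of 5 nt from the end of mt-Co2 and had a C score of -0.535 and an F score of 0.535. Both F scores were below those of the 4 knockout-called footprints inside mt-Co2, the lowest of which was 0.969. An F score of at most 1 was found for 20 of all 124 knockout-called footprints and for 4 of the 65 on mRNAs. Low F scores outside mRNAs are thus not particular to the borders of mt-Co2. On the control track the nearest footprints outside the mRNA were chrM:6964-6979 in mt-Td, with 33 nt between it and mt-Co2 and an F score of 0.997, and chrM:7818-7833 in mt-Atp8, with 121 nt between and an F score of 0.985.

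On the minus strand opposite mt-Co2 lay 1 control-called footprint of 32 nt, chrM:7109-7140, with a C score of 0.00271 and an F score of 0.698, and 0 knockout-called ones. It faced the 128 nt stretch without plus-strand footprints and was 41 nt away from the nearest of them. Opposite mt-Co1 the counts were 1 control-called and 2 knockout-called, and opposite mt-Co3 they were 2 and 2.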
